A study of Mus musculus with 7 samples.

Results

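Wild-type embryonic stem cells (ESCs) were set against wild-type mouse embryonic fibroblasts (MEFs) given doxycycline (DOX), which induces OSKM (Oct4, Sox2, Klf4 and Myc). The comparison used 2 of the 7 mouse arrays of a series on the histone demethylase Utx in reprogramming. The WT ESC array held the V6.5 line of genotype UTX+/Y, the array of DOX-treated cells held V19-OSKM MEFs of the same Utx genotype after DOX, and WT MEFs of that line without DOX served as the starting point. A UTX-/Y V6.5 ESC array (KO ESC) is given beside them as the other ESC array of the series; it differs in genotype and is not a replicate. The labels name 1 growth medium, 2i/LIF medium for ESCs, for all samples, and give no time of DOX exposure for these MEFs. Gene levels are the log2 values deposited by the authors, and differences are WT ESC minus WT MEF with DOX, so a positive value means higher in ESCs. Genes with more than 1 array row were represented by that of highest mean level, which left 13562 genes, of which 9463 exceeded a floor of 7.34 (the 40th percentile of all values) on at least 1 of the 2 arrays. Each condition was hybridised once, so the differences carry no replicate error and no test, and fold sizes describe these arrays. In bulk RNA, fewer cells of a type and less RNA per cell cannot be told apart.

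Pluripotent cells of the mouse are held in their state by a network of transcription factors around Oct4, Sox2 and Nanog, with Esrrb, Klf2, Tfcp2l1 and Prdm14 as members of its naive branch. When fibroblasts receive the 4 reprogramming factors, mesenchymal genes are typically shut early and epithelial genes come on, while the cells' own Nanog, Sox2 and Esrrb are late events. Cells that stall on the way can express genes of other lineages, among them those of the epidermis, whose outer cells build a cornified envelope of crosslinked proteins and a barrier of lipids.

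The labelled cell types were checked against marker genes. Of 7 measured ESC markers, 7 exceeded the floor on the WT ESC array, 2 on the array of WT MEFs with DOX and 1 on that of WT MEFs without DOX. Of 10 fibroblast markers, 6 exceeded it in WT ESCs, 4 with DOX and 10 without DOX, against 1 in KO ESCs. The log2 of their summed level was 11.94 in WT ESCs and 9.70 in KO ESCs, 12.56 with DOX and 15.13 without. The WT ESC array therefore carried fibroblast-type RNA that the KO ESC array held less of. Its part in the results was not tested. Xist, which coats the inactive X, had levels of 8.10 in WT ESCs, 10.90 in WT MEFs with DOX, 11.06 without DOX and 6.60 in KO ESCs, although the labels give these cells a Y chromosome. The Y-linked Uty stood at 8.44 in WT ESCs, 7.55 with DOX, 7.34 without DOX and 3.68 in KO ESCs. The medians of the 2 arrays were both 7.81.

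WT ESCs exceeded DOX-treated MEFs by 2-fold or more in 1288 genes, 13.6% of the 9463 above the floor, and DOX-treated MEFs exceeded ESCs in 1583, 16.7%. At 4-fold or more the counts were 422 (4.46%) and 608 (6.43%). At the 2-fold limit 6592 genes (69.7%) lay within it. The standard deviation of the difference across genes was 1.30, against 0.46 for WT minus KO ESCs, where 96.2% of 8598 genes lay within 2-fold. The widest gaps were gaps between a high gene and one under the floor: of 147 genes 8-fold or more higher in ESCs, 132 lay under the floor with DOX, and of 230 genes 8-fold or more higher with DOX, 204 lay under the floor in ESCs. For such genes the fold is a lower bound, taken against the floor and written as "at least". Fold classes and ranks use the deposited differences, so for these genes they rest partly on signal under the floor.

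**Figure D1:**
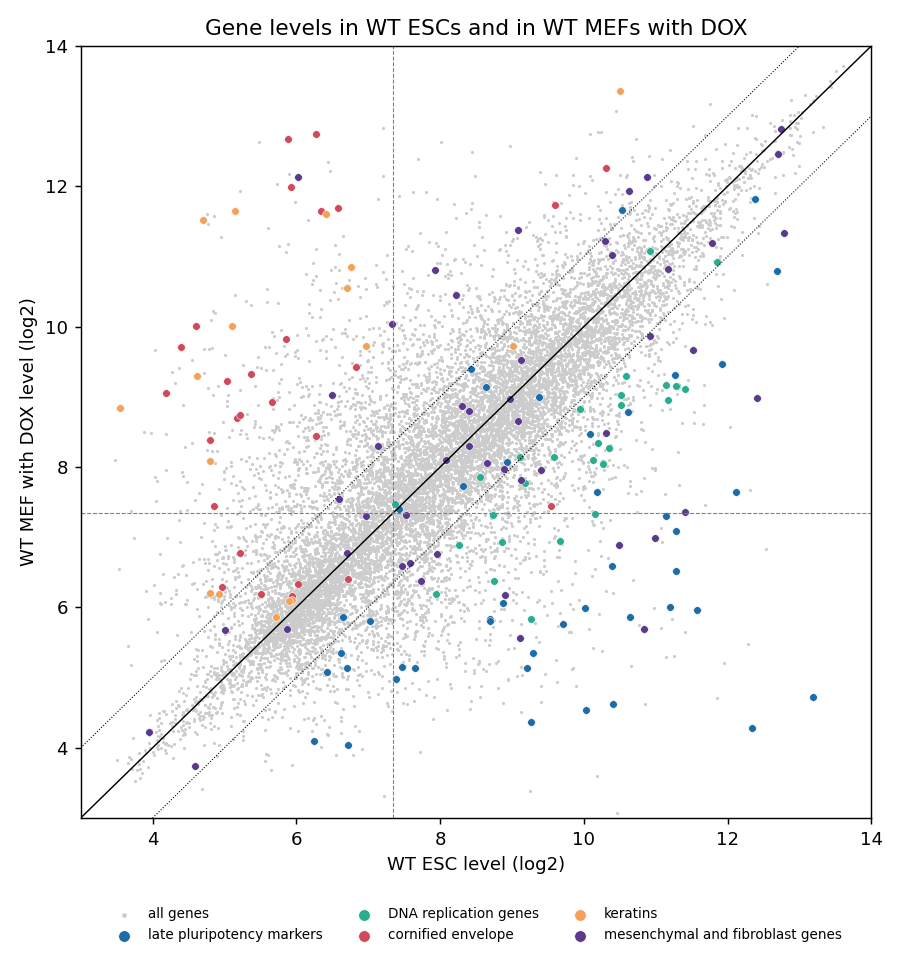
Level of each of 13562 genes (log2) in WT ESCs (horizontal axis) and in WT MEFs with DOX (vertical axis), 1 array each, with 5 gene lists in colour; dotted lines mark a 2-fold difference and dashed lines the floor of 7.34. Most late pluripotency and replication genes lie below the diagonal, most cornified envelope genes and keratins above it, and mesenchymal genes on both sides.

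The delivered factors themselves differed in how their array signal stood against ESCs. Pou5f1, which encodes Oct4, read 12.14 in WT ESCs, 12.59 in WT MEFs with DOX and 8.19 in WT MEFs without DOX. Its level with DOX was within 2-fold of ESCs, a difference of -0.45. Myc, the growth-promoting factor, read 9.39 in ESCs, 12.21 with DOX and 10.99 without, 7.05-fold above ESCs. Klf4 read 10.64 in ESCs and 8.89 with DOX, 3.35-fold below ESCs, and its level with DOX was within 2-fold of untreated MEFs. Sox2 read 11.26 in ESCs, 5.31 with DOX and 5.18 without, at least 15.1-fold below ESCs. Of the 4 factors, Pou5f1 and Myc were at or above ESC level, and Klf4 and Sox2 were below it and close to their level without DOX. The array signal does not separate transgene from endogenous transcripts of these 4 genes, and which part of each transcript its probes cover was not examined. Their family members Klf5 (difference 3.57), Klf2 (2.87), Mycn (3.31) and Sox15 (2.91) were likewise higher in ESCs.

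Naive pluripotency regulators had the highest list median in favour of ESCs. All 21 measured exceeded the floor in WT ESCs and 10 did with DOX. ESCs had at least 2-fold more of 17 and DOX-treated MEFs of 0, against 13.6% and 16.7% of all genes. The list median was 3.51, against 0.04 over all genes. For members under the floor with DOX the direction follows from the floor. Nanog, the homeodomain factor that stabilises the network, read 12.28 in WT ESCs, 5.48 in WT MEFs with DOX, 5.43 without DOX and 12.59 in KO ESCs, at least 30.7-fold. Nr0b1, a nuclear receptor that binds Oct4, read 11.86 in WT ESCs, 4.71 with DOX, 4.03 without DOX and 12.24 in KO ESCs. Esrrb, an orphan nuclear receptor, read 11.15 in WT ESCs, 5.29 with DOX, 4.81 without DOX and 11.36 in KO ESCs. On each of these 3 genes both MEF arrays lay under the floor and both ESC arrays far above it. Zfp42 (Rex1), Nr5a2 and Prdm14 were likewise under the floor with DOX, with differences of 4.91, 4.71 and 3.58. Others lay between ESCs and untreated MEFs. Tfcp2l1, a target of LIF signalling, read 12.03 in ESCs, 8.57 with DOX and 5.55 without, and Sall4, a zinc finger partner of Oct4, read 11.13 in ESCs, 7.62 with DOX and 5.72 without DOX. Fgf4, the autocrine growth factor of ESCs, read 10.89 in ESCs, 9.21 with DOX and 6.32 without DOX. These 3 lay above the floor with DOX and under it without, and still 11.1-fold, 11.4-fold and 3.20-fold below ESCs. The LIF receptor gene Lifr read 8.94 in ESCs, 4.96 with DOX and 8.36 without DOX. Klf2 read 9.39 in ESCs, 6.52 with DOX and 8.42 without DOX. Both were lower with DOX than in untreated MEFs. The pathway's transducers Stat3 (0.18) and Il6st (-0.43) lay within 2-fold.

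Markers that follow late in reprogramming were higher in ESCs for 29 of 37 measured members above the floor, with 1 higher with DOX. Over all genes above the floor 13.6% were higher in ESCs. The median was 2.52 over 44 members. All 37 exceeded the floor in WT ESCs and 15 with DOX, so for many the direction follows from the floor. Dppa5a, an RNA-binding protein of pluripotent cells, had the widest difference and the highest bound among genes higher in ESCs: 13.19 in WT ESCs, 4.72 in WT MEFs with DOX, 4.36 without DOX and 13.10 in KO ESCs, at least 57.7-fold. Tdgf1, the Nodal co-receptor Cripto, read 12.34 in WT ESCs, 4.28 with DOX, 4.07 without DOX and 12.58 in KO ESCs. Utf1, a chromatin-bound factor, read 11.28 in ESCs and 6.51 with DOX. Lin28a, which blocks let-7 maturation, read 8.87 in ESCs and 6.07 with DOX. Dppa2 and its partner Dppa4 differed by 5.61 and 4.07, and Fbxo15, Gdf3 and Alpl by 5.50, 4.79 and 3.84. None of these 7 exceeded the floor with DOX. L1td1, an RNA-binding protein of ESCs, differed from these: it read 9.38 in ESCs and 5.44 in untreated MEFs, and ESCs were 1.30-fold higher than DOX-treated cells. Cd9, a tetraspanin, was the member higher with DOX, at 10.54 in ESCs, 11.66 with DOX and 9.36 without.

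Promoter sequences (250 bases before to 50 after the annotated start, RefSeq GRCm38.p6) were listed for 10731 of the 13562 genes. Those of Nanog (chr6:122707239-122707538, plus strand) and Esrrb (chr12:86360867-86361166, plus strand) are shown because both genes lay under the floor with DOX; CG dinucleotides, the sites of DNA methylation, are in capitals.
Nanog: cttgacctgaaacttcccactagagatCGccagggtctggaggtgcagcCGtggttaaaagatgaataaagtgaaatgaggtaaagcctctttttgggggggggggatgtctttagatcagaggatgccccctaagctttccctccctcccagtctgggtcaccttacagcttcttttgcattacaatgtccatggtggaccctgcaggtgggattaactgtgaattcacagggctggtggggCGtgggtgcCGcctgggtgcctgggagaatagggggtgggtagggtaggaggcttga
Esrrb: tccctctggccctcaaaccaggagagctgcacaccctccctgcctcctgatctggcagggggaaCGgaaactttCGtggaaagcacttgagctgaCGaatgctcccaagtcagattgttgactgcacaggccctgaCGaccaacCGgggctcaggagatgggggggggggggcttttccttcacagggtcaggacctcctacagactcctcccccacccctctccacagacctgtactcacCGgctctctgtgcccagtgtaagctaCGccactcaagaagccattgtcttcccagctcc
Both are poor in CG: the Nanog window holds 4 and the Esrrb window 7, and the ratio of observed to expected CG was 0.19 and 0.27, against a median of 0.75 over all listed promoters. Genes 2-fold or more higher in ESCs than on both MEF arrays had a median of 0.76 (681 promoters). At 4-fold or more it was 0.69 (203 promoters), so these 2 windows do not stand for the class. Methylation was not measured in this series.

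Enzymes that write and erase DNA methylation differed in both directions. Of 13 measured, 6 were higher in ESCs and 2 with DOX, against 13.6% and 16.7% of all genes. The 2 higher with DOX are thus near the share over all genes. Tet1, the dioxygenase abundant in ESCs, read 12.54 in WT ESCs, 6.83 in WT MEFs with DOX, 9.19 without DOX and 12.72 in KO ESCs, at least 36.7-fold. Tet3 stood the other way round, at 6.54 in ESCs, 8.74 with DOX and 8.44 without, while Tet2 read 11.04 in ESCs, 10.44 with DOX and 8.23 without DOX and so was near ESC level with DOX. DOX-treated cells thus held Tet2 and Tet3 but had a Tet1 level under the floor. Dnmt3l, the cofactor of the de novo methyltransferases, differed by 5.79 and Dnmt3b by 2.28, with both under the floor with DOX, whereas Dnmt3a was higher with DOX (6.78 in ESCs, 8.44 with DOX, 7.62 without). The maintenance enzyme Dnmt1 and its partner Uhrf1 were higher in ESCs, by 1.73 and 2.58. Polycomb genes, which silence developmental loci, were higher in ESCs for 10 of 26 members above the floor and higher with DOX for 2. These counts stand against the same shares of all genes, and the list median was 0.54. Cbx7, the chromobox protein of ESCs, read 9.88 in ESCs, 6.67 with DOX and 6.27 without. The accessory factors Mtf2 (2.75), Phc1 (2.30) and Jarid2 (1.95) and the core subunits Eed (1.91), Suz12 (1.55) and Ezh2 (1.17) were higher in ESCs too, and Pcgf5 (-2.04) and Yaf2 (-1.03) with DOX. Kdm6a, which encodes Utx, read 9.12 in ESCs and 8.93 with DOX. Among BAF remodelling subunits 18 of 21 above the floor lay within 2-fold, against 69.7% of all genes. The exceptions were Smarcd1 (1.73) and Actl6a (1.04), higher in ESCs, and Smarca2 (-2.37), the ATPase Brm, higher with DOX.

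A few genes of the germ line and several zinc finger genes were also higher in ESCs. Of 18 germ cell genes measured, 7 exceeded the floor, 6 on the ESC array and 1, Tdrd7, with DOX. Those 6 were called higher in ESCs, but all were under the floor with DOX, so their direction follows from the floor. Tdrd12, a Tudor-domain protein of the piRNA pathway, differed by 3.97, Rnf17 by 3.61 and Tex15 by 3.55. Against the floor they were at least 3.04-fold, 3.23-fold and 1.69-fold higher in ESCs. Tdrd7 differed by -2.04. Zfp980 read 10.46 in WT ESCs, 3.07 in WT MEFs with DOX, 3.14 without DOX and 10.60 in KO ESCs, at least 8.69-fold. It belongs to a stretch of 6 measured neighbours on chromosome 4, Zfp980, Zfp600, Zfp991, Zfp982, Zfp985 and Zfp979, a range chosen after the values were seen. In it ESCs were higher for 6 of 6, by 1.26 to 7.39, and 2-fold above the floor for 5. These genes are close copies, so probes may be shared and the single values are uncertain. Zfp640 (6.59), Lncenc1, a long noncoding RNA of ESCs (6.75), Triml2 (6.22) and Pla2g1b, a secreted phospholipase (5.76), were, with genes named above, among the 15 widest deposited differences. Among genes above the floor on both arrays the widest were Apoe, a lipid carrier (25.1-fold higher in ESCs), the adhesion gene Jam2 (22.2-fold) and Ifitm1, a membrane protein (18.8-fold). Esco2, a cohesin acetyltransferase, and Ticrr, of replication initiation, were 10.5-fold and 8.84-fold higher.

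Genes of DNA replication and mitosis were lower in DOX-treated MEFs than in ESCs, and close to their level without DOX. Of 29 replication genes 24 were 2-fold or more higher in ESCs and 0 with DOX, with a median of 1.86. Of 29 mitosis genes 25 were higher in ESCs and 0 with DOX, with a median of 1.38. Over all genes above the floor 13.6% were higher in ESCs and 16.7% with DOX. DOX minus no DOX had a median of 0.05 for replication genes and 0.03 for mitosis genes. Orc1, the subunit that starts origin licensing, read 9.26 in WT ESCs, 5.83 in WT MEFs with DOX and 5.35 without DOX. Mcm2, of the replicative helicase, read 11.17 in ESCs, 8.95 with DOX and 8.91 without DOX. Bub1b, a spindle checkpoint kinase, read 10.02 in ESCs, 7.70 with DOX and 7.52 without DOX. On all 3 the MEF arrays differed by less than 2-fold. G1 cyclins differed among themselves. Ccnd1 read 10.72 in ESCs, 12.67 with DOX and 11.47 without. Ccnd2 read 10.59 in ESCs, 12.14 with DOX and 12.22 without DOX, and Ccnd1 and Ccnd2 were both higher with DOX than in ESCs. Ccnd3 (0.08) and Ccne2 (-0.11) lay within 2-fold, and Ccne1 (1.49) was higher in ESCs. Oxidative phosphorylation genes, by comparison, lay within 2-fold for 32 of 32 members above the floor, against 69.7% of all genes.

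**Figure D2:**
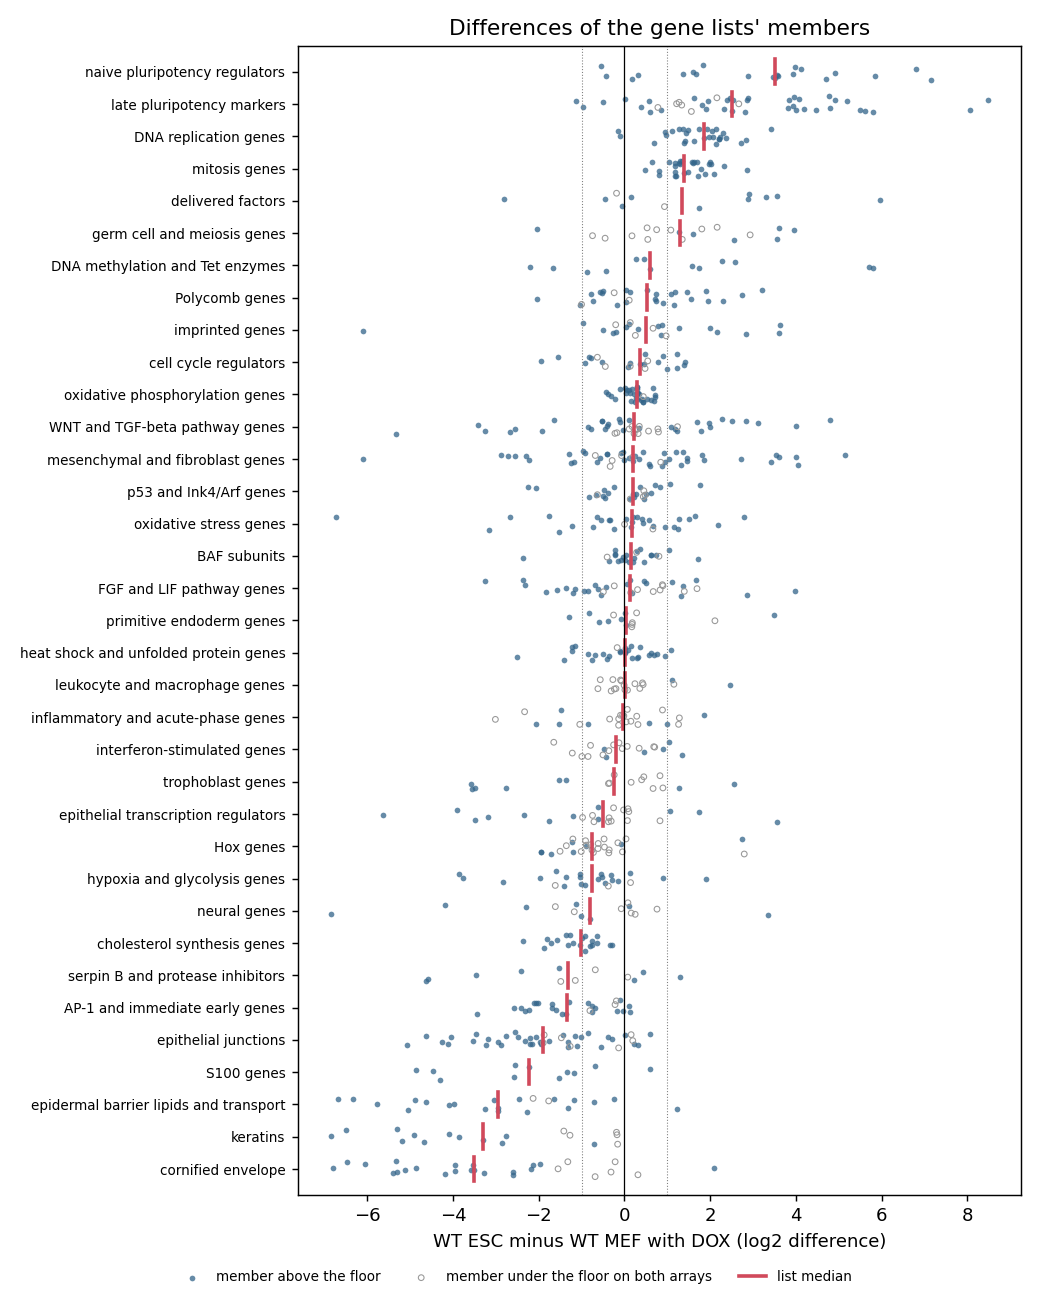
Difference WT ESC minus WT MEF with DOX (log2) for each measured member of 35 gene lists, with the list median as a red bar; open points are members under the floor on both arrays. Medians run from -3.52 for the cornified envelope to 3.51 for naive pluripotency regulators, and the dotted lines mark 2-fold.

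The genes that DOX-treated MEFs expressed beyond ESC level were led by those of the outer epidermis. In the cornified envelope list, 21 genes exceeded the floor, 20 of them at least 2-fold up with DOX and 1 in ESCs. Over all genes above the floor 16.7% were higher with DOX and 13.6% in ESCs. The list median was -3.52 over 27 measured. All 21 exceeded the floor with DOX but only 3 in WT ESCs, so for most of the 20 the direction follows from the floor. Sprr1a, a small proline-rich envelope protein, read 5.92 in WT ESCs, 11.98 in WT MEFs with DOX, 9.52 without DOX and 5.74 in KO ESCs, at least 25.0-fold. Krtdap, a secreted keratinocyte differentiation protein, read 4.61 in WT ESCs, 10.01 with DOX, 4.53 without DOX and 4.55 in KO ESCs, and Scel (sciellin), an envelope precursor, 4.39 in WT ESCs, 9.72 with DOX, 4.41 without DOX and 4.38 in KO ESCs. Krtdap and Scel were above the floor on the DOX array alone, whereas Sprr1a was already above it in untreated MEFs. Tgm3 and Tgm1, the transglutaminases that crosslink the envelope, differed by -5.31 and -1.96, Cnfn (cornifelin) by -5.12, and the plakin Ppl by -3.27. Ly6g6c (-6.79) and Nccrp1 (-6.46) were at least 40.2-fold and 42.2-fold higher with DOX. Lce1h was the 1 member higher in ESCs (9.54 in WT ESCs, 7.45 with DOX and 7.45 in KO ESCs). The terminal markers Lor (loricrin) and Ivl (involucrin), at 6.77 and 6.29 with DOX, remained under the floor.

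The promoters of Sprr1a (chr3:92485832-92486131, minus strand), Krtdap (chr7:30787655-30787954, plus strand) and Scel (chr14:103513091-103513390, plus strand), from RefSeq GRCm38.p6, are shown because each holds the motif bound by AP-1, the dimer of Fos and Jun proteins. Matches to the AP-1 letters TGANTCA are in capitals. Matches to the TATA box, TATAAA, are in capitals too, and both strands were searched.
Sprr1a: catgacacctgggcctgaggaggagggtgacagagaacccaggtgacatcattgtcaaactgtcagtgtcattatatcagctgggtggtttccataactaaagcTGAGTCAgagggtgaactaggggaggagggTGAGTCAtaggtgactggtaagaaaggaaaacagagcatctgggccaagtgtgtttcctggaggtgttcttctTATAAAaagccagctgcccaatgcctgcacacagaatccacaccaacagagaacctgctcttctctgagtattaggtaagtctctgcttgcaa
Krtdap: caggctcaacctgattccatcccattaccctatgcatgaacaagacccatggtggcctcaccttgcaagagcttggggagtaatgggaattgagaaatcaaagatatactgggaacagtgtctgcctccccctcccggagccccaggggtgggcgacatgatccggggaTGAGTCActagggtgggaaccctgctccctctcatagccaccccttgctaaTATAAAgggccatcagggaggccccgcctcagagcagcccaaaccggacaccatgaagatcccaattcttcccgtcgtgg
Scel: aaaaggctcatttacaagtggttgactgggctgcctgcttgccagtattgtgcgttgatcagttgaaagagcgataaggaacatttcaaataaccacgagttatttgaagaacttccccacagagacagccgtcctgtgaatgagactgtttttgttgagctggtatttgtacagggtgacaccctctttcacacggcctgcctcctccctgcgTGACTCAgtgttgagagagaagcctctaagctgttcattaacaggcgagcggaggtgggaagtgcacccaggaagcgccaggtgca
Sprr1a has AP-1 matches 146 and 116 bases before the start and a TATA match 43 bases before it, Krtdap an AP-1 match at 81 and a TATA match at 30 bases, and Scel an AP-1 match at 36 bases. These matches are letters in a window and not measured binding. TGANTCA occurred in 10.2% of 460 promoters of genes 4-fold or more higher with DOX and in 12.2% of 230 promoters of genes 4-fold or more above both other WT arrays with DOX. It occurred in 4.98% of 321 promoters of genes 4-fold or more higher in ESCs and in 5.10% of all 10731. Other 4-fold classes over the 3 WT arrays had 11.5% (high on both MEF arrays), 10.4% (low with DOX alone) and 8.68% (high without DOX alone), so a share above that of all promoters was found also among genes low with DOX. Among the 61 promoters of genes 16-fold or more higher with DOX, a class added after the values were seen, 12 held it (19.7%), those of Krt13, Sprr2b, Serpinb5, Serpinb8, Dmkn, Vtcn1, Ifi209, Tspan15 and Cnksr1 besides the 3 shown. The N allows any base: Krt13 and Serpinb5 matched only as TGAATCA, the others of the 12 as TGAGTCA or TGACTCA. In ESCs 86 of the 92 genes of the 16-fold class lay under the floor, and against the floor Serpinb5 was at least 2.24-fold and Scel at least 5.19-fold higher with DOX. Promoters poor in CG (a ratio under 0.4) made up 36.1% of the genes 4-fold higher with DOX, 24.0% of those 4-fold higher in ESCs and 17.1% of all. They made up 43.4% of the 311 promoters of genes 4-fold or more lower on both other arrays than in untreated MEFs. The median ratio was 0.56 for genes higher with DOX and 0.65 for genes higher in ESCs. TATAAA was in 9.57% of the promoters of genes 4-fold higher with DOX and 12.5% of those higher in ESCs, against 7.47% of all. At 16-fold the order was the other way, 19.7% with DOX and 11.4% in ESCs. The Grhl motif AACCGGTT was in 1 promoter of each direction at 4-fold, in 0 at 16-fold and in 0.214% of all.

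**Figure D3:**
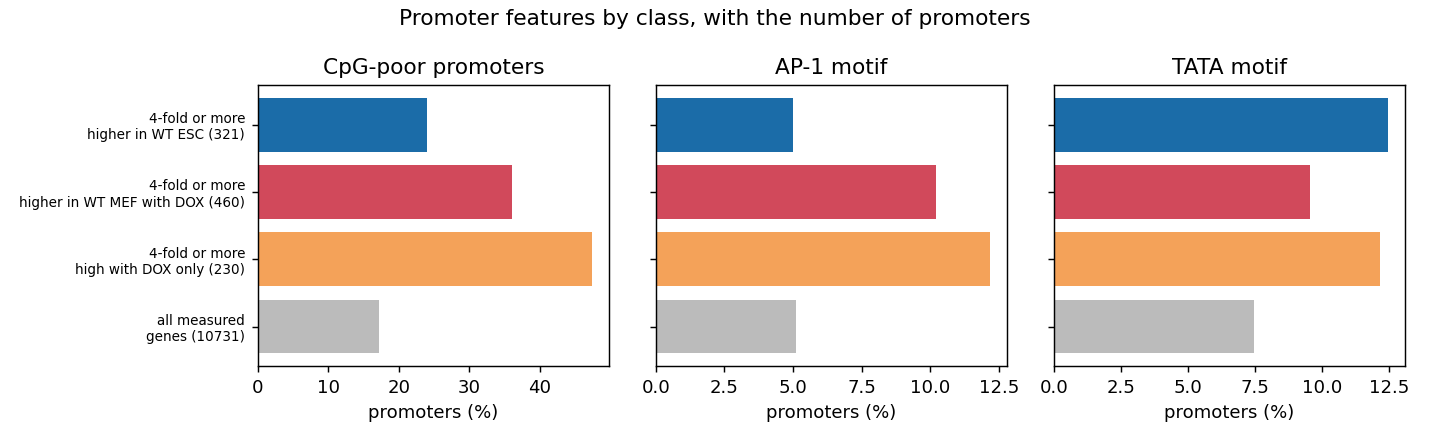
Share of promoters (%) that are CpG-poor, hold TGANTCA (AP-1) or hold TATAAA, for genes 4-fold or more higher in WT ESCs, higher in WT MEFs with DOX, and high with DOX against both other WT arrays, with all measured genes at the bottom and the number of promoters in brackets. CpG-poor promoters reach 47.4% and the AP-1 motif 12.2% in the genes high with DOX against both others.

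Most barrier lipid genes and keratins were higher with DOX too. Of 20 barrier genes above the floor, 17 were higher with DOX and 1, Gba2, in ESCs, against 16.7% and 13.6% of all genes. On this list 19 genes exceeded the floor with DOX and 9 in WT ESCs. For genes under the floor in ESCs the direction follows from the floor. Alox12b, the lipoxygenase that starts the oxidation of barrier ceramides, read 4.77 in WT ESCs, 11.46 in WT MEFs with DOX, 4.70 without DOX and 4.82 in KO ESCs, and its partner Aloxe3 5.45 in WT ESCs, 9.43 with DOX, 5.25 without DOX and 5.41 in KO ESCs. Abca12, the lipid carrier of lamellar granules, differed by -4.89, the ceramide synthase Cers3 by -5.04 and the fatty acid hydroxylase Cyp4f39 by -5.76. All 5 were above the floor with DOX and under it in ESCs. Kallikrein proteases degrade desmosomes at the skin surface. All 7 measured neighbours from Klk12 to Klk6 on chromosome 7 were higher with DOX, by 2.27 to 4.62. That range is itself a run of genes called higher with DOX, so 7 of 7 follows from its choice. Klk5 and Klk13, at 6.43 and 7.19 with DOX, were under the floor on both arrays. Klk10 read 8.01 in ESCs, 12.63 with DOX and 6.76 without. Of 12 keratins above the floor 11 were higher with DOX, with a median of -3.30 over 17. All 12 exceeded the floor with DOX but only 2 in WT ESCs, so here too the direction mostly follows from the floor. Krt16, a keratin of activated epidermis, read 4.70 in ESCs, 11.53 with DOX and 4.92 without. Krt14, of the basal layer, read 5.14 in ESCs, 11.65 with DOX and 5.26 without DOX. Krt8, of simple epithelia, was high on both arrays, at 10.51 in WT ESCs, 13.36 with DOX, 7.07 without and 8.67 in KO ESCs, and Krt18 lay within 2-fold. Krt10, of the layers above the basal one, read 6.11 with DOX, under the floor. Keratins are similar in sequence, so signal may be shared between probes.

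Most cell junction genes were higher with DOX than in ESCs. Of 37 above the floor, 29 were higher with DOX and 0 in ESCs, with a median of -1.91. Over all genes above the floor the shares were 16.7% and 13.6%. All 37 exceeded the floor with DOX and 18 in WT ESCs. For those under the floor in ESCs the direction follows from the floor. Cdh1, the adhesion molecule E-cadherin, read 10.89 in WT ESCs, 11.74 in WT MEFs with DOX and 5.79 without DOX. Epcam read 8.33 in ESCs, 7.74 with DOX and 4.79 without DOX. Spint1, a protease inhibitor of epithelia, read 11.03 in ESCs, 10.81 with DOX and 5.38 without DOX. These 3 were within 2-fold of ESCs. Dsg3, the desmoglein of stratified epithelia, read 4.28 in ESCs, 9.36 with DOX and 4.09 without, Pkp1 (plakophilin) differed by -4.62 and Dsp (desmoplakin) by -4.12. Itgb4, the hemidesmosomal integrin, read 8.44 in ESCs, 12.48 with DOX and 6.76 without DOX, and Lamb3, a laminin chain beneath it, differed by -3.52. Claudins 3, 4, 6 and 7 of tight junctions differed by -2.77, -1.02, -1.75 and -3.46. Among transcription regulators of epithelia, 7 of 12 above the floor were higher with DOX and 3 in ESCs. Ehf, an Ets factor, read 4.03 in ESCs, 9.66 with DOX and 4.22 without, Ovol1 differed by -3.90 and Grhl3 by -1.77, while Klf5 and Klf4 were higher in ESCs and Elf3 was 2.09-fold higher, at 9.31 in ESCs, 8.24 with DOX and 8.08 in KO ESCs. The S100 calcium-binding genes were higher with DOX for 9 of 11 on that list, from S100a13 at -1.17 to S100a3 at -4.87, with S100a11 and S100pbp, a binding partner and not an S100 protein, within 2-fold. Of the keratinocyte markers, those above the floor numbered 0 of 6 in ESCs, 3 with DOX (Krt14, Krt1 and Dsg3) and 0 without DOX.

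The widest differences in favour of DOX were not confined to keratins and envelope genes. Mall, a lipid raft protein, had the widest deposited difference in this direction: 5.48 in WT ESCs, 12.63 in WT MEFs with DOX, 5.90 without DOX and 5.56 in KO ESCs, at least 39.1-fold. By the bound, Srgn (45.2-fold), Nccrp1 and Ly6g6c stood above it. Gpr50, an orphan relative of the melatonin receptors, read 4.76 in WT ESCs, 11.61 with DOX, 4.93 without DOX and 4.20 in KO ESCs. Mal2, of apical transport in epithelia, read 5.22 in WT ESCs, 11.94 with DOX, 6.05 without DOX and 5.27 in KO ESCs. Aldh3a1, an aldehyde dehydrogenase abundant in the cornea, read 4.85 in WT ESCs, 11.57 with DOX, 4.84 without DOX and 4.87 in KO ESCs. On all 4 the DOX array stood alone above the floor. Ano1, a calcium-activated chloride channel, differed by -6.30, Slurp1, a secreted keratinocyte peptide, by -6.28, Cwh43, of GPI anchor remodelling, by -6.33, and Msln (mesothelin) by -5.90. Among genes measured above the floor on both arrays, Podxl, a sialomucin, was 26.0-fold higher with DOX, Tgm2, a tissue transglutaminase, 12.5-fold, Apcdd1, a Wnt inhibitor of the hair follicle, 12.3-fold and Crip1 12.2-fold. Across the 10214 genes above the floor on at least 1 of the 3 WT arrays, 740 (7.24%) were 2-fold or more above both other arrays with DOX. The patterns over these 3 arrays share arrays with one another and are not exclusive.

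Markers of other lineages were mixed. Their counts stand against 13.6% of all genes higher in ESCs and 16.7% higher with DOX. Of 8 trophoblast genes above the floor, 6 were higher with DOX, among them Gata2 (-3.57), Elf5 (-3.49) and Ceacam1 (-3.56), and 2 in ESCs, Eomes (2.56) and Peg10 (1.27). Of 8 primitive endoderm genes 6 lay within 2-fold, a share near the 69.7% of all genes, with Lama1 (3.49) higher in ESCs and Gata6 (-1.30) higher with DOX. Of 8 neural genes 5 were higher with DOX, including the brain lipid carrier Fabp7 (-4.19), and Olig2 (3.35) in ESCs. Gata6 read 6.78 in ESCs, 8.08 with DOX and 8.99 without DOX. The intermediate filament gene Nes read 6.15 in ESCs, 8.43 with DOX and 8.91 without DOX. Both were within 2-fold of untreated MEFs with DOX.

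Stress genes gave no single direction. The counts below stand against 13.6% of all genes higher in ESCs and 16.7% higher with DOX. AP-1 and immediate early genes, which respond within minutes to growth factors and stress, were higher with DOX for 14 of 23 above the floor and in ESCs for 0, with a median of -1.33. Fosl1 (Fra-1) read 7.27 in WT ESCs, 9.50 in WT MEFs with DOX and 9.65 without DOX. Fosl2 read 7.83 in ESCs, 10.23 with DOX and 10.43 without DOX. Jun read 8.31 in ESCs, 9.89 with DOX and 10.10 without DOX. For these 3 the DOX array was within 2-fold of untreated MEFs. Fosb (6.95 in ESCs, 8.64 with DOX and 7.61 without DOX), Nr4a1 (9.51 in ESCs, 11.51 with DOX and 9.73 without DOX) and Dusp4, a phosphatase of the ERK pathway (6.41 in ESCs, 9.86 with DOX and 7.92 without DOX), exceeded both. Hypoxia and glycolysis genes were higher with DOX for 10 of 21 and in ESCs for 1, and 9 of these 10, all but Slc2a1, were also 2-fold or more above ESCs in untreated MEFs. Egln3, an oxygen-sensing hydroxylase, read 7.96 in ESCs, 11.82 with DOX and 9.66 without DOX. Slc16a3, the lactate exporter, read 7.68 in ESCs, 10.52 with DOX and 11.15 without DOX. Slc2a3, the neuronal-type glucose transporter next to Nanog, was higher in ESCs (12.68 in ESCs, 10.79 with DOX and 7.82 without DOX). Cholesterol synthesis genes were higher with DOX for 10 of 20 and in ESCs for 0, with a median of -1.01, led by Hsd17b7 (-2.37), Cyp51 (-1.87) and Msmo1 (-1.80); 20 of 20 differences were negative.

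Of 29 oxidative stress genes above the floor, 7 were higher in ESCs, 6 with DOX and 16 within 2-fold. The shares over all genes were 13.6%, 16.7% and 69.7%. Hmox1, heme oxygenase, read 11.03 in WT ESCs, 9.53 in WT MEFs with DOX and 10.74 without DOX, Gstm1 differed by 2.19 and Sod2 by 1.27. Aldh1a1 (-3.16), Aldh1a3 (-2.67) and Gsto1 (-1.75) were higher with DOX. Heat shock and unfolded protein genes lay within 2-fold for 22 of 28, against 69.7% of all genes, the widest difference being that of Hspa1a, the inducible Hsp70, at 7.07 in ESCs, 9.57 with DOX and 7.68 without. Of 21 p53 and Ink4/Arf genes 17 lay within 2-fold, against the same 69.7%. Trp53inp1 (1.76) and Sesn2 (1.07) were higher in ESCs and Btg2 (-2.25) and Perp (-2.07), which is also a desmosomal protein, with DOX. Cdkn2a, the Ink4/Arf locus, read 7.02 in ESCs, 6.54 with DOX and 7.01 without, under the floor on all 3.

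Signalling genes differed in both directions. Of the 32 WNT and TGF-beta genes above the floor 13 were higher in ESCs and 7 with DOX, against 13.6% and 16.7% of all genes. The ligand Nodal and its relative Gdf3 differed by 4.01 and 4.79, both higher in ESCs. Bmp4 and Bmp7 were higher in ESCs as well, by 2.27 and 1.98. Bmp2 read 5.11 in ESCs, 8.52 with DOX and 5.44 without DOX. Wnt7a read 4.87 in ESCs, 10.20 with DOX and 4.66 without DOX. These 2 ligands were above the floor on the DOX array alone. The BMP targets Id1 and Id2 were 9.55-fold and 5.91-fold higher with DOX than in ESCs, Id3 (-0.77) lay within 2-fold, and the feedback inhibitor Smad7 (1.23) was higher in ESCs. Inhba (2.85) and Tgfb3 (1.18) were higher in WT ESCs. Against KO ESCs both were higher with DOX: Inhba read 7.30 in KO ESCs and 7.80 with DOX, and Tgfb3 5.69 in KO ESCs and 8.18 with DOX. Of 25 FGF and LIF genes 6 were higher in ESCs and 8 with DOX, against the same shares of all genes. They included the ERK feedback genes Spry2 (2.86, higher in ESCs) and Spry4 (-1.21, higher with DOX) and the carrier Fgfbp1 (-3.24).

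A minority of fibroblast genes stayed above ESC level on both MEF arrays: of 49 on the mesenchymal list, 9 were so by 2-fold or more. On the same list 36 were at least 2-fold lower in both ESCs and DOX-treated MEFs than in untreated MEFs. These groups overlap: Col6a3, which is in both, read 6.49 in WT ESCs, 9.03 with DOX and 11.30 without DOX. The list's median of DOX minus no DOX was -2.84. Over the 3 WT arrays 729 genes (7.14%) were 2-fold or more higher in both MEF arrays than in ESCs. Dcn (decorin), a matrix proteoglycan, read 6.03 in WT ESCs, 12.13 in WT MEFs with DOX, 11.85 without DOX and 5.05 in KO ESCs, at least 27.7-fold. Crabp2, a carrier of retinoic acid, read 7.43 in WT ESCs, 11.86 with DOX, 11.67 without DOX and 6.36 in KO ESCs. Cd34, a sialomucin of progenitor cells, read 5.79 in WT ESCs, 9.95 with DOX, 9.74 without DOX and 6.09 in KO ESCs. DOX-treated and untreated MEFs differed by less than 2-fold on these 3. Srgn (serglycin) was higher still with DOX, at 7.21 in WT ESCs, 12.84 with DOX, 10.94 without DOX and 6.27 in KO ESCs. Lama4, 2610528A11Rik and Fabp7 followed the pattern with differences of -3.88, -4.67 and -4.19 from WT ESCs and -5.21, -4.73 and -3.91 from KO ESCs. Kcnma1 did so as well, at -3.78, but its other array row gave 0.35. Prrx1, a transcription factor of limb mesenchyme, read 9.09 in ESCs, 11.38 with DOX, 11.85 without and 5.88 in KO ESCs. Cd44 read 7.94 in WT ESCs, 10.81 with DOX, 9.95 without DOX and 5.32 in KO ESCs. Of 27 Hox genes measured, which keep positional identity, 8 exceeded the floor. Of these, 5 were higher with DOX than in ESCs, with the widest differences at Hoxa6 (-1.95) and Hoxa9 (-1.94), and 1, Hoxc12 (2.75), was higher in ESCs. Over all genes above the floor the shares were 16.7% and 13.6%. Against the floor Hoxa6 was at least 1.18-fold, Hoxa9 at least 1.05-fold and Hoxb3 at least 2.20-fold higher with DOX. Hoxc12 was at least 1.65-fold higher in ESCs.

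The mesenchymal list as a whole depended on which ESC array was used. Of 43 members above the floor, 15 were higher in WT ESCs and 9 with DOX, against 13.6% and 16.7% of all genes. The median was 0.21, but with the KO ESC array in place of the WT one it was -0.99. Col1a1, the main fibrillar collagen chain, read 10.30 in WT ESCs, 8.49 in WT MEFs with DOX, 12.86 without DOX and 7.59 in KO ESCs. Lox, which crosslinks collagen, read 11.51 in WT ESCs, 9.66 with DOX, 12.86 without DOX and 7.96 in KO ESCs. For both, DOX-treated cells lay below WT ESCs and above KO ESCs. Genes of the contractile apparatus were not uniform. Actg2, a smooth muscle actin, read 10.39 in WT ESCs, 11.02 with DOX, 12.04 without DOX and 6.83 in KO ESCs. Cnn1 (calponin) read 10.83 in WT ESCs, 5.69 with DOX, 12.07 without DOX and 7.58 in KO ESCs. Acta2 read 12.41 in WT ESCs, 8.99 with DOX, 12.97 without DOX and 9.94 in KO ESCs. Tagln read 10.49 in WT ESCs, 6.89 with DOX, 12.05 without DOX and 7.80 in KO ESCs. With DOX Cnn1, Acta2 and Tagln were lower than on either ESC array, though Acta2 (0.95) and Tagln (0.91) were within 2-fold of KO ESCs, and Actg2 was higher than on both. Penk (proenkephalin) read 9.82 in WT ESCs, 5.64 with DOX, 12.46 without DOX and 6.40 in KO ESCs. Tnc (tenascin) read 10.99 in WT ESCs, 6.98 with DOX, 12.90 without DOX and 7.96 in KO ESCs. Myl9, a myosin light chain, read 11.41 in WT ESCs, 7.36 with DOX, 12.61 without DOX and 8.75 in KO ESCs, so its difference was 4.05 against WT ESCs and 1.39 against KO ESCs. The fibroblast markers above the floor in WT ESCs numbered 6 of 10, as given above, and their part in these differences was not tested.

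**Figure D4:**
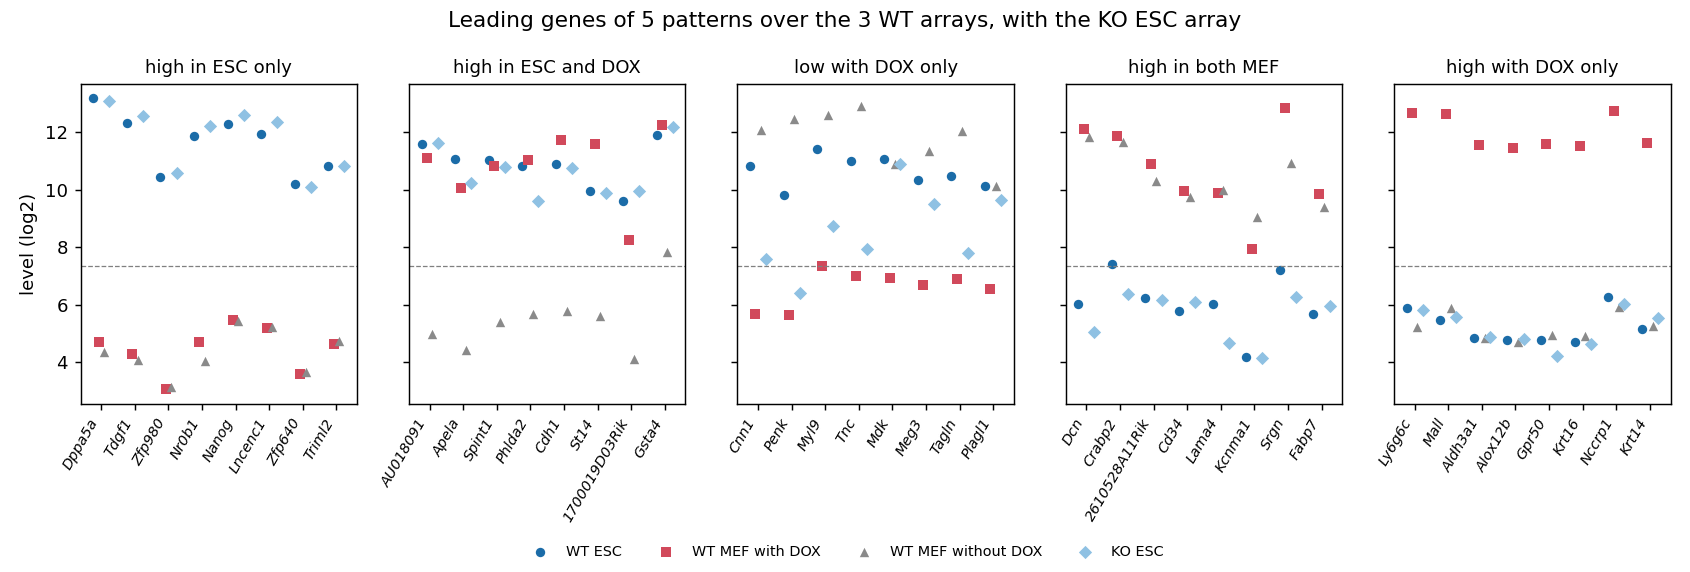
Levels (log2) of the 8 leading genes of 5 patterns over the 3 WT arrays, with the KO ESC array beside them and the floor of 7.34 as a dashed line. Among genes low with DOX alone, Cnn1, Penk, Myl9, Tnc and Tagln lie lower in KO ESCs than in WT ESCs.

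Genes that were lower with DOX than on both other WT arrays numbered 337 (3.30%), among them imprinted genes whose KO ESC level was within 2-fold of WT ESCs. Mdk (midkine), a growth factor, read 11.08 in WT ESCs, 6.93 in WT MEFs with DOX, 10.90 without DOX and 10.91 in KO ESCs. Plagl1, an imprinted zinc finger regulator of growth, read 10.15 in WT ESCs, 6.55 with DOX, 10.14 without DOX and 9.66 in KO ESCs. Meg3, the maternally expressed noncoding RNA of the Dlk1-Dio3 interval on chromosome 12, read 10.33 in WT ESCs, 6.70 with DOX, 11.35 without DOX and 9.51 in KO ESCs, at least 7.96-fold below ESCs. On these 3 the DOX array alone lay under the floor. In the same interval Rian read 7.48 in WT ESCs, 4.64 with DOX, 7.97 without DOX and 6.27 in KO ESCs. DQ267102 read 11.54 in WT ESCs, 8.63 with DOX, 11.85 without DOX and 11.45 in KO ESCs. The measured genes from Dlk1 to Dio3, a range chosen after the values were seen, numbered 27, of which 10 exceeded the floor on at least 1 of the 2 arrays, 7 were 2-fold or more higher in ESCs and 0 with DOX. The other 17 were under the floor on both, so their differences are not read. The median over all 27, 0.78 against WT ESCs and 0.48 against KO ESCs, includes these 17 and so rests mostly on signal under the floor. Dlk1 read 7.08 in ESCs, 7.28 with DOX and 11.74 without DOX. Across imprinted genes 6 of 17 above the floor were higher in ESCs and 1, Dcn, with DOX, against 13.6% and 16.7% of all genes. Igf2 (0.10), Igf2r (0.04) and Phlda2 (-0.21) lay within 2-fold of WT ESCs. Against KO ESCs Igf2 and Phlda2 were higher with DOX: Igf2 read 9.51 in WT ESCs, 9.41 with DOX, 12.35 without DOX and 6.77 in KO ESCs, and the KO ESC difference of Phlda2 was -1.42.

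**Figure D5:**
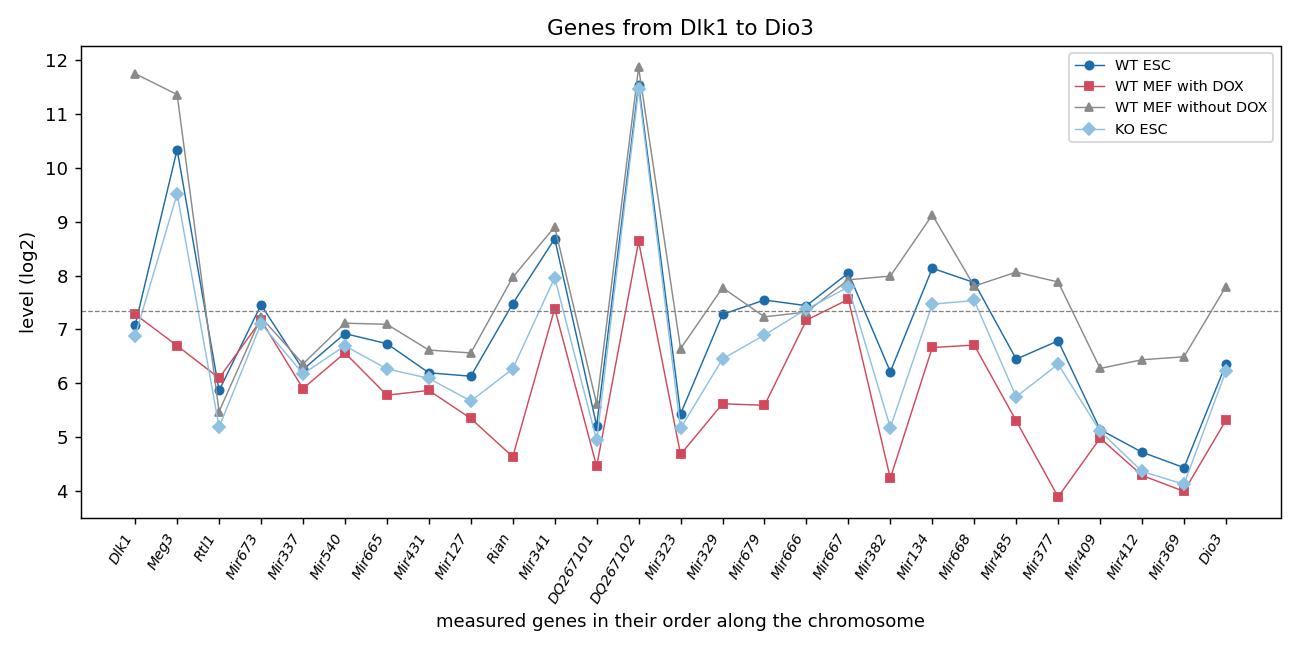
Level (log2) of the 27 measured genes from Dlk1 to Dio3 in their order along the chromosome, in WT ESCs, WT MEFs with DOX, WT MEFs without DOX and KO ESCs; the dashed line is the floor of 7.34 and lines join the points of 1 array. At Meg3, Rian and DQ267102 the WT MEFs with DOX lie below the other 3 arrays; 17 genes are under the floor on both WT ESC and DOX arrays.

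The array rows measure RNA from the hairpin's gene and do not tell its arms apart or show the mature microRNA. Of 97 microRNA genes measured, 25 exceeded the floor. Of the 25, 7 were 2-fold or more higher in ESCs and 3 with DOX, against 13.6% and 16.7% of all genes. The 3 higher with DOX are thus near the share over all genes. Of the 10 called, Mir15a and Mir341 were above the floor on both arrays and Mir27a was at least 2.06-fold higher with DOX. For the others the bound against the floor was under 2-fold. Of the 7, Mir134, Mir341, Mir668 and Mir679 lie between Dlk1 and Dio3. Against KO ESCs their differences were 0.80, 0.57, 0.83 and 1.30. Of the 20 microRNA genes measured in that interval 7 exceeded the floor. The median over the 20, 0.77 against WT ESCs and 0.39 against KO ESCs, rests mostly on signal under the floor. The mature sequences of the 4 genes of the interval and of 4 others among the 10, without Mir135b and Mir211, are given from RefSeq GRCm38.p6, with the seed (bases 2 to 8) in capitals.
mmu-miR-134-5p: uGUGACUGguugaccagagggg
mmu-miR-679-5p: gGACUGUGaggugacucuuggu
mmu-miR-341-3p: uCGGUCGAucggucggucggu
mmu-miR-668-3p: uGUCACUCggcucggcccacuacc
mmu-miR-15a-5p: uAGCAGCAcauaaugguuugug
mmu-miR-25-3p: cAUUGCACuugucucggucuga
mmu-miR-27a-3p: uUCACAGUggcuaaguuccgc
mmu-miR-24-3p: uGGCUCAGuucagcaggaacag
The first 6 come from genes higher in ESCs and the last pair from genes higher with DOX. No seed was shared among the 19 mature microRNAs of these 10 genes. Mir134 read 8.13 in WT ESCs, 6.67 in WT MEFs with DOX, 9.12 without DOX and 7.47 in KO ESCs. Mir15a read 9.41 in WT ESCs, 7.77 with DOX, 8.45 without DOX and 9.94 in KO ESCs, and Mir25, of the Mcm7 intron, 8.26 in WT ESCs, 7.18 with DOX, 6.97 without DOX and 8.50 in KO ESCs. Mir27a, which is transcribed together with Mir24-2, read 6.14 in WT ESCs, 8.38 with DOX, 7.67 without DOX and 6.23 in KO ESCs. Mir24-2 read 6.09 in WT ESCs, 7.52 with DOX, 6.57 without DOX and 5.93 in KO ESCs. The pair from that transcript were both above the floor with DOX and under it in ESCs.

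Some genes low in untreated MEFs were high on both other WT arrays. Over the 3 WT arrays 391 genes (3.83%) were 2-fold or more higher in both than in untreated MEFs. AU018091 read 11.58 in WT ESCs, 11.10 in WT MEFs with DOX and 4.97 without DOX. Apela, a peptide hormone of ESCs, read 11.06 in ESCs, 10.08 with DOX and 4.41 without DOX. Phlda2, an imprinted brake on placental growth, read 10.84 in ESCs, 11.05 with DOX and 5.69 without DOX. Gsta4, a glutathione transferase, read 11.92 in ESCs, 12.26 with DOX and 7.84 without DOX. On these 4 the DOX array lay within 2-fold of ESCs. St14 (matriptase), the protease that Spint1 inhibits, was 3.14-fold beyond ESCs. The octamer ATGCAAAT is bound by Oct4 and its relatives. Among promoters of genes with this pattern at 4-fold or more, it was found in 5 of 76 (6.58%), against 1.44% of all promoters. The 5 were those of Elf3, Prrg4, Zfp296, Plet1 and Pipox. At 2-fold the share was 2.67% of 300 promoters. Other 2-fold patterns had near shares: 2.53% (high without DOX alone), 2.37% (low with DOX alone) and 2.26% (high with DOX alone). A further 844 genes (8.26%) were 2-fold or more higher in ESCs than on both MEF arrays, the pattern of Nanog and Dppa5a. Genes at least 2-fold lower on both the ESC and the DOX array than in untreated MEFs numbered 1017 (9.96%). The macrophage lysozyme Lyz2 read 5.24 in ESCs, 4.88 with DOX and 12.06 without DOX, and Tnmd of tendon 4.62 in ESCs, 4.20 with DOX and 10.89 without DOX. The others of the leading 8 were the macrophage genes Ccl3, C3ar1, Fcer1g and Wfdc17, the gap junction gene Gjb2 and the matrix gene Abi3bp, all under the floor in ESCs and with DOX. Of 6 macrophage markers 6 exceeded the floor without DOX, and 1, Cd68, on each of the other WT arrays.

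Some of the genes that differed lay side by side. Runs of 3 or more neighbouring measured genes, in RefSeq order, that were all 2-fold higher with DOX numbered 53 with 177 of the 1583 genes, and those higher in ESCs 31 with 96 of the 1288. How many such runs chance gives was not tested. The longest with DOX was that of 8 S100 genes on chromosome 3, from S100a1 to S100a7a, followed by the 7 kallikreins. Sprr1b, Sprr3 and Sprr1a, then Lce3c, Crct1 and Crnn lay on the same chromosome, Sbsn, Dmkn and Krtdap on chromosome 7, Aloxe3, Alox12b and Alox8 and the keratins Krt19, Krt14, Krt16 and Krt17 on chromosome 11, and Serpinb5, Serpinb2 and Serpinb8 on chromosome 1. In ESCs the longest run held 5 genes, Prr11, Ska2, Trim37, Rad51c and Tex14, which include genes of mitosis and DNA repair. Pluripotency genes stood in runs of 3: Gdf3, Nanog and Slc2a3 on chromosome 6, Dppa4, Dppa2 and Morc1 on chromosome 16, and Triml1, Triml2 and Zfp42 on chromosome 8. Morc1 read 9.90 in WT ESCs, 4.88 in WT MEFs with DOX and 4.38 without DOX. Triml1 read 10.12 in ESCs, 5.43 with DOX and 4.56 without DOX. Related genes can share probe sequence, so counts within families are not independent.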

How the data were processed

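Expression was measured on Affymetrix arrays in 7 mouse samples, 1 per condition, grouped by their titles. The values are log2 levels as deposited; the submitters' processing notes name RMA and the Affymetrix Expression Console, and give neither a version nor a build. The platform annotation gave 1 gene symbol to 14894 of 21811 probe sets, several to 925, which were left out, and none to 5992. Gene IDs of 14854 of these were found in RefSeq. The kit in the labels is one for 3-prime arrays, while the probe IDs are of a whole-transcript array.

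With Python 3.11.15, numpy 2.4.6 and pandas 2.3.3, log2 differences were taken between arrays, and genes were counted at 2-fold where the higher value exceeded the floor. No test was run. Members, 36 gene lists and the neighbour interval were chosen with earlier results of these data known. The genes named are the 15 widest differences in each direction, the 10 widest with both arrays above the floor, the 8 leading genes of 6 patterns over the 3 WT arrays, the delivered factors, and list members by role. Promoters are the first listed in RefSeq for a gene. Counting was checked on simulated data. Alternatives covered scaling, the floor, the fold, the rows of a gene and the KO ESC array.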

Additional observations from a re-analysis of the deposited data

How the results depend on the processing

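No paired analysis was possible because each condition has 1 array, and for the same reason no array could be left out of a group. The 6 pattern counts stayed within 1.5 times their reported value under all 7 alternatives run on them. The counts of genes higher in WT ESCs and higher in WT MEFs with DOX did so too under scaling, floor, row and KO ESC alternatives, and were 2275 and 2460 at 1.5-fold and 422 and 608 at 4-fold. With members above the floor alone, 5 list medians moved. They went from -0.49 to -1.48 for epithelial transcription regulators (12 of 24 members) and from -0.24 to -2.14 for trophoblast genes (8 of 17). For Hox genes the median went from -0.76 to -1.21 (8 of 27) and for interferon-stimulated genes from -0.19 to 0.68 (6 of 20). For leukocyte and macrophage genes it went from 0.0036 to 1.78, but 1.78 rests on 2 of 18 members, Cd68 and Laptm5. With the KO ESC array in place of the WT one, the mesenchymal median moved to -0.99.

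Of 864 gene differences, none changed by more than 0.46, the standard deviation between the ESC arrays, under the 3 scaling alternatives, and 5 did with the mean over rows. With the KO ESC array 201 did so, and 11 genes called at 2-fold changed sign: Bgn to -2.45, Col1a1 to -0.90, Col1a2 to -1.49, Cxcl14 to -0.61, Elf3 to -0.16, Fbln5 to -1.26, Inhba to -0.50, Lce1h to -0.0063, Lox to -1.70 and Tgfb3 to -2.49, and Slc7a11 to 0.20. The cause was not tested. The AP-1 share of promoters of genes higher with DOX was 10.2% at 4-fold and 19.7% at 16-fold, a class added after the data were seen. Signal near the floor limits every fold given as a lower bound.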
